A study of Homo sapiens with 7 samples.

Results

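The 7 RNA-seq libraries of an ASH1L knockout series were divided into 3 knockout clones, KO1, KO3 and KO4, and the other 4 libraries, which are the wild-type (WT) libraries WT1, WT2 and WT3 and the knockout clone KO2. The 3 clones were chosen by the measured values themselves, because the log2 RPKM of gut and liver genes had been seen to lie lower in them and not in KO2. All comparisons of the 3 clones with the other 4 libraries are therefore descriptions, without a test, and they lend no support to the division. Of 13142 genes with a value, the 11154 with a log2 RPKM above 0 in at least 3 of the 7 libraries are described. RPKM is the number of reads scaled to gene length and library size, so levels can be compared between genes.

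All libraries come from BHT-101, an anaplastic thyroid cancer cell line. The WT samples are biological replicates without an edit in ASH1L. Each KO library is a separate line in which premature stop codons interrupt ASH1L, which encodes a histone methyltransferase of the Trithorax group. KO1 has the stop after residue 413 on both alleles, KO2 after residue 610 on both alleles and KO3 after residue 2129 on both alleles, while KO4 has stops after residues 2169 and 2174. There is 1 library per KO line. No KO line with intact ASH1L was analysed here, so ASH1L loss and other differences of a line from WT cannot be told apart.

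Endodermal epithelia, such as liver and gut, are specified by a small group of transcription factors that includes HNF4A, CEBPA and the FOXA factors. HNF4A binds the promoters of many genes for plasma proteins, metabolic enzymes and membrane carriers. The follicular cells of the thyroid also derive from endoderm, but the fibrinogen, trefoil factor and villin genes are best known from liver and gut.

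GATA factors take part in the development of endodermal organs, and GATA6 was expressed in all 7 libraries. The RefSeq promoters (GRCh38.p14, the 250 bases before the start site) of genes that separated the libraries were searched for the GATA motif AGATAA on either strand. The 5 windows below belong to FGG, which encodes a fibrinogen chain, HNF4A, a liver transcription factor, the enzyme genes ALDH1A1 and AKR1C3, and SHH, the gene of the ligand sonic hedgehog. The motif was chosen after the data had been seen, and the windows after their matches had been seen, to show the sequence next to genes described in the results. The motif is in capitals (TTATCT is its reverse complement). In the order given, the windows lie at chr4:154612657-154612906 (minus strand), chr20:44355449-44355698 (plus strand), chr9:72953054-72953303 (minus strand), chr10:5048531-5048780 (plus strand) and chr7:155812464-155812713 (minus strand).
FGG: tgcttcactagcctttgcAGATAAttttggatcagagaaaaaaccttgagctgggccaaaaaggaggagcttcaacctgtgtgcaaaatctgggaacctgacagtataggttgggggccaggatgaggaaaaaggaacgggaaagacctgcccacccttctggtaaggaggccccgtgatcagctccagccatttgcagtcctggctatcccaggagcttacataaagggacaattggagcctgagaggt
HNF4A: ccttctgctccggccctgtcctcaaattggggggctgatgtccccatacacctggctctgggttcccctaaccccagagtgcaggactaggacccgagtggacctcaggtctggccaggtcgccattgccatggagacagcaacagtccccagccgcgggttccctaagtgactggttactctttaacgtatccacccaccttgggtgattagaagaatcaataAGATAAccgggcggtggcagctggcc
ALDH1A1: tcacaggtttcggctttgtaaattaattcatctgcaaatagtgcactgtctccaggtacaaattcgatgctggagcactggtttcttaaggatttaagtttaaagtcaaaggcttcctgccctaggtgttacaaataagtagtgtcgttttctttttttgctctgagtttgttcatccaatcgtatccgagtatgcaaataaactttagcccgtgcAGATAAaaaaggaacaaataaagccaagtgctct
AKR1C3: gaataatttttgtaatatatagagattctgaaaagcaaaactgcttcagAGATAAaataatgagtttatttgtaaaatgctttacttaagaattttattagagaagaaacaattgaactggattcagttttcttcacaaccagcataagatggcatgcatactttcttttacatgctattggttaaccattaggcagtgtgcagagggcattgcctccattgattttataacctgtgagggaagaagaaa
SHH: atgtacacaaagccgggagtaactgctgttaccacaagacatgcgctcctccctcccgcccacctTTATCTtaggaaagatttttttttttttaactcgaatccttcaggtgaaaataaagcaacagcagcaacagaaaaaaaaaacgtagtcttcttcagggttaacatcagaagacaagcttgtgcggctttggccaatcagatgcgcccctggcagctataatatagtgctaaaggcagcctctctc

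The motif began 232 bases before the start site in FGG, 26 in HNF4A, 34 in ALDH1A1, 201 in AKR1C3 and 185 in SHH. A match describes these letters and does not show that a factor binds. Among the 108 genes that lay below in the 3 clones by the widest gaps (defined with the counts), 63 had a window, and 13 of their 88 windows held the motif (14.8%). Of the 46 windows of genes that lay higher in the 3 clones, 8.7% held it, and of all 12139 windows of tested genes 4.7%. The TATA box letters TATAAA were in 12.5%, 8.7% and 5.5% of these windows, and the FOXA motif TGTTTAC in 2.3%, 4.3% and 2.2%. The AP-1 motif TGANTCA was in 5.7%, 6.5% and 4.5%, and the HNF4 letters CAAAGTCCA were in 1 of the 88 windows of lower genes. Fewer than 80% of the genes had a window (58.3% of the lower genes, 67.6% of the higher genes and 74.6% of all), so the comparison of these shares is void.

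The 3 WT libraries were close to each other (Pearson r across genes 0.988 to 0.995). KO2 was at 0.935 to 0.940 with WT, KO3 at 0.913 to 0.921, KO4 at 0.920 to 0.926 and KO1 at 0.821 to 0.830, so KO1 was the library farthest from WT. The pair KO1 and KO4 was at 0.926, as high as KO4 with WT1, while KO1 and KO3 were at 0.881 and KO1 and KO2 at 0.788. ASH1L itself was at log2 RPKM 3.34, 3.30 and 3.22 in WT1 to WT3, 2.54 in KO2 and 2.69, 2.42 and 3.74 in KO1, KO3 and KO4, so its level did not separate the 3 clones from the rest. Of the thyroid markers, PAX8 was between -5.02 and -1.20 in all 7 libraries, and values for NKX2-1, FOXE1, TG and TSHR were not analysed here. The epithelial keratin gene KRT8 was between 5.64 and 7.42. Of 15 leukocyte markers 3 had values, and their summed RPKM was 9.64 to 12.3 in WT, 2.19 in KO2 and 0.675, 1.15 and 3.18 in KO1, KO3 and KO4. Of 15 fibroblast and endothelial markers 4 had values, with sums of 51.4 to 55.4 in WT, 32.4 in KO2 and 20.4, 70.2 and 34.8 in KO1, KO3 and KO4. CD3D alone was at log2 RPKM 3.05 to 3.39 in WT, and LUM at 5.19 to 5.38. These sums are levels of marker genes, and numbers of leukocytes, fibroblasts or endothelial cells were not measured. A part of such cells in the results was not tested. In bulk libraries, the share of cells that express a gene and its level per cell cannot be told apart.

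In 1170 genes (10.5% of those tested) all 3 clones lay below all of the other 4 libraries, and in 943 (8.45%) all 3 lay above them. A gap of more than 1 log2 unit between the sets was left in 108 genes with the clones below (0.968%) and in 37 with the clones above (0.332%). At a gap of more than 2 log2 units 38 genes were lower and 6 higher. These counts rest on the choice of libraries: 332 genes in all had a gap over 1 without KO3, 293 without KO4 and 245 without KO2, against 145 with all 7 libraries. The gap lies between the extremes of the sets, so leaving out a library can only keep or raise such a count. On the log2(RPKM + 1) scale, which shrinks differences at low levels, 69 genes kept such a gap.

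The 108 lower genes were not changed equally in the 3 clones. KO1 was the lowest of the 3 in 96 of them, and the median difference from the WT mean was -6.20 in KO1, -2.68 in KO3 and -2.52 in KO4 on the log2 scale. In 12 of the 108 genes KO1 was within 1.5 log2 units of the level of a gene without reads, compared with 2 genes in KO3 and 1 in KO4. For those genes the levels are more informative than any fold change. KO2 did not simply match WT: it lay above all 3 WT libraries in 75 of the 108 genes, within their range in 11 and below them in 22, with a median difference of 0.57. Over all tested genes KO2 was above every WT library in 39.2% and below in 40.6%. A gene was among the 108 only if KO2 lay more than 1 log2 unit above all 3 clones, which favours high KO2 values. The counts for KO2 in the 108 are therefore a description and not evidence of a rise. In 36 of the genes KO2 was more than 1 log2 unit above the WT mean. The median WT range over the same genes was 0.29. Positions were known for 99 of the 108, of which 95 (96.0%) are protein coding.

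**Figure D1:**
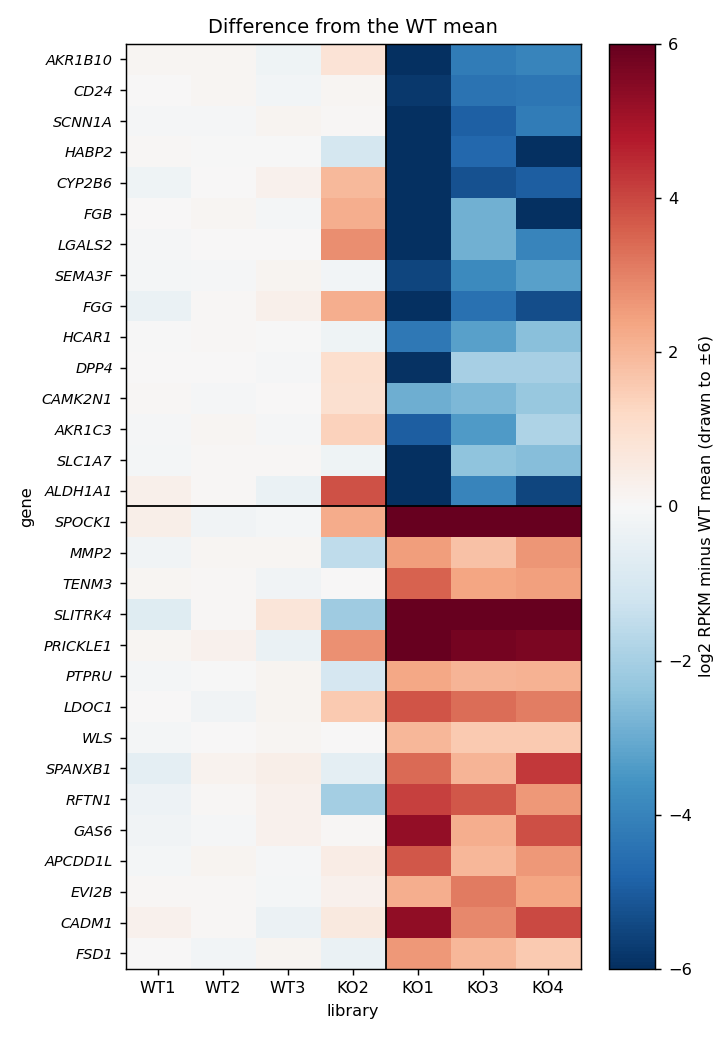
Rows are the 15 named genes that lay lowest and the 15 that lay highest in the 3 clones, by the gap on the log2(RPKM + 1) scale, and columns are the 7 libraries. Colour gives log2 RPKM minus the WT mean, drawn to 6 in both directions. The 3 columns on the right (KO1, KO3 and KO4) are blue in the upper block and red in the lower one, while KO2 ranges from -2.13 for SLITRK4 to 3.82 for ALDH1A1. The genes were chosen for this pattern.

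The transcription factors were examined first, since 13 of the 27 on the list of endoderm and liver factors passed the filter on low values. Of these 13, 5 lay below in all 3 clones (HNF4A, CEBPA, ELF3, PROX1 and HNF4G), SOX9 lay above, and the other 7 overlapped. The shares were 38.5% below and 7.7% above, against 10.5% and 8.45% of all tested genes, so the share above was near that of all genes. The list's median difference between the sets was -1.15, against -0.01 over all tested genes, and it was -0.76 with quantile normalization and -0.69 on the log2(RPKM + 1) scale. In KO2 9 of the 13 were above every WT library (69.2%, against 39.2% of all tested genes) and 4 below.

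HNF4A (ENSG00000101076, chromosome 20, 44355700 to 44434596, hg38), a nuclear receptor of liver and gut epithelium, was at log2 RPKM 1.64, 1.52 and 1.47 in WT1 to WT3 and 3.41 in KO2. In KO1, KO3 and KO4 it was at -6.10, -0.65 and -0.04. The sets did not overlap, and KO2 was the highest library, at 3.64 times the WT mean. HNF4A passed the filter on low values only through WT and KO2. CEBPA (ENSG00000245848, chromosome 19, 33299934 to 33302564), a leucine zipper factor of hepatocytes, was at 2.72, 2.88 and 2.71 in WT and 5.90 in KO2, against -2.14, 1.69 and 1.64 in KO1, KO3 and KO4. KO2 thus held 8.77 times the WT mean, while KO3 and KO4 were at 0.473 and 0.458 times. ELF3, an ETS factor of epithelia, was at 4.32, 4.19 and 4.48 in WT and 4.74 in KO2, and at 0.78, 3.05 and 2.99 in KO1, KO3 and KO4. For these 3 factors the gap between the sets was over 1 log2 unit.

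The gap was smaller for PROX1, a homeobox factor of liver and lymphatic development, and for HNF4G, a relative of HNF4A. PROX1 was at 0.41 to 0.98 in WT, 1.68 in KO2 and -3.72, 0.05 and -0.81 in KO1, KO3 and KO4, a gap of 0.36. HNF4G was at 3.01 to 3.33 in WT, 2.73 in KO2 and 1.26, 2.59 and 1.91 in the 3 clones, a gap of 0.15, which is under the WT range. SOX9, a factor of bile duct, gut crypt and cartilage cells, went the other way, with 1.06, 1.22 and 1.01 in WT, 2.12 in KO2 and 3.80, 2.41 and 3.24 in KO1, KO3 and KO4. KO2 was itself above WT for SOX9, so the gap of 0.29 lies between KO2 and KO3.

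The factors that overlapped did not divide the libraries in this way. SPDEF, an ETS factor of secretory epithelium, was at 3.93 to 4.36 in WT, 4.62 in KO2, -6.27 in KO1, 4.27 in KO3 and 1.63 in KO4, so KO3 lay within the WT range. FOXA2, a pioneer factor of endoderm, was at 4.18 to 4.28 in WT and at 2.52, 3.73, 4.32 and 3.69 in KO1 to KO4. FOXA3 was highest in KO3 (1.57) and KO2 (1.33), and GATA6 was between 1.66 and 2.47 everywhere. CREB3L3, a membrane-bound factor of liver and intestine, was at 2.72 in KO2 and -1.74 in KO1, with KO3 and KO4 (0.19 and 0.84) around the WT levels of 0.24 to 0.63. HHEX was at 2.50 in KO2 and 1.89 in KO1, above the WT levels of 0.78 to 1.21. KLF5 was at 3.26 to 4.11 in WT and 2.35 to 2.91 in the 4 clones.

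**Figure D2:**
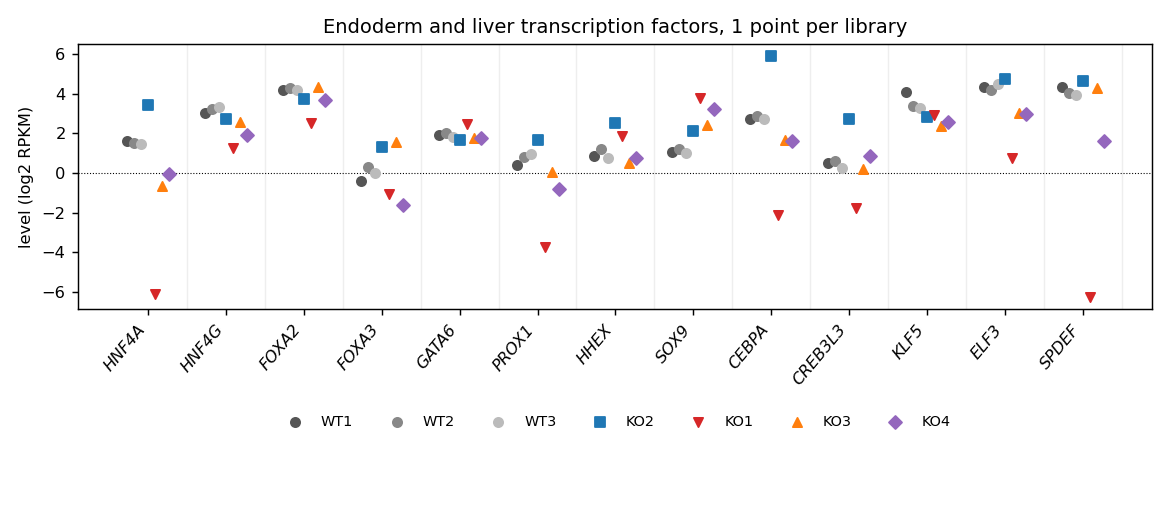
Each column is 1 of the 13 tested endoderm and liver transcription factors and each point 1 library, with log2 RPKM on the vertical axis. KO2 (squares) is the highest library for HNF4A and CEBPA, KO1 (triangles pointing down) is the lowest for HNF4A and SPDEF, and KO3 (triangles pointing up) lies with WT for SPDEF.

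Among plasma proteins of the liver, 17 of 60 listed genes were tested. In 14 of them all 3 clones lay below the other 4 libraries, against 10.5% of all tested genes, and in none above. In 8 the gap was over 1. FGA, FGG, HABP2 and AMBP were at or below 0 in all 3 clones and passed the filter on low values only through WT and KO2. Such genes favour a share below. The median difference between the sets was -3.80. Medians relative to WT were -6.22 in KO1, -1.99 in KO3 and -2.37 in KO4, and 2.15 in KO2, where 12 of the 17 genes were above every WT library (70.6%, against 39.2% of all tested genes). On the log2(RPKM + 1) scale the median between the sets was -1.88. The genes FGA, FGB and FGG encode the chains of fibrinogen, the precursor of the fibrin clot, and lie together on chromosome 4 between 154562956 and 154612967 (hg38). FGB was at log2 RPKM 3.35, 3.45 and 3.20 in WT and 5.51 in KO2, and at -4.98, 0.45 and -3.38 in KO1, KO3 and KO4. FGG was at 1.83, 2.30 and 2.53 in WT, 4.42 in KO2 and -9.71, -2.26 and -3.11 in the 3 clones. FGA was at 1.09, 1.55 and 1.42 in WT, 3.54 in KO2 and -9.84, -3.72 and -9.84 in KO1, KO3 and KO4. For all 3 chains KO2 was the highest library, at 4.54 to 4.59 times the WT mean, and the sets did not overlap. KO1 was near the level without reads for FGA and FGG, as was KO4 for FGA, and the 3 genes are neighbours and thus not separate observations of position.

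Other clotting and plasma genes followed with differences in detail. HABP2 (ENSG00000148702, chromosome 10, 113550837 to 113589602), a protease that activates factor VII, was at 4.66, 4.58 and 4.57 in WT and 3.55 in KO2, and at -9.73, -0.11 and -2.83 in KO1, KO3 and KO4. It was 1 of the genes in which KO2 lay below WT, at 0.482 times the WT mean. F2, the prothrombin gene, was at 0.67, 0.87 and 1.26 in WT, 3.60 in KO2 and -5.28, -3.33 and -1.44 in the 3 clones. AMBP, which encodes the precursor of bikunin, was at 1.84, 1.88 and 1.92 in WT, 3.69 in KO2 and -4.96, -0.11 and -1.57 in the 3 clones. ITIH2, a heavy chain that is joined to bikunin, was at 1.42 to 1.65 in WT, 2.79 in KO2 and -9.61, -1.40 and -7.51. F5, the factor V gene, was nearly level with WT in KO3: it was at 2.88 to 2.97 in WT, 5.13 in KO2 and -4.63, 2.84 and 0.83 in KO1, KO3 and KO4, a gap of 0.04. The tested plasma genes that overlapped were SERPINA1, F12 and CFI. The complement protease gene CFI was at 0.01 to 0.09 in WT, 3.55 in KO2, -2.61 in KO1, -7.16 in KO3 and 1.45 in KO4, so KO4 lay on the side of KO2.

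**Figure D3:**
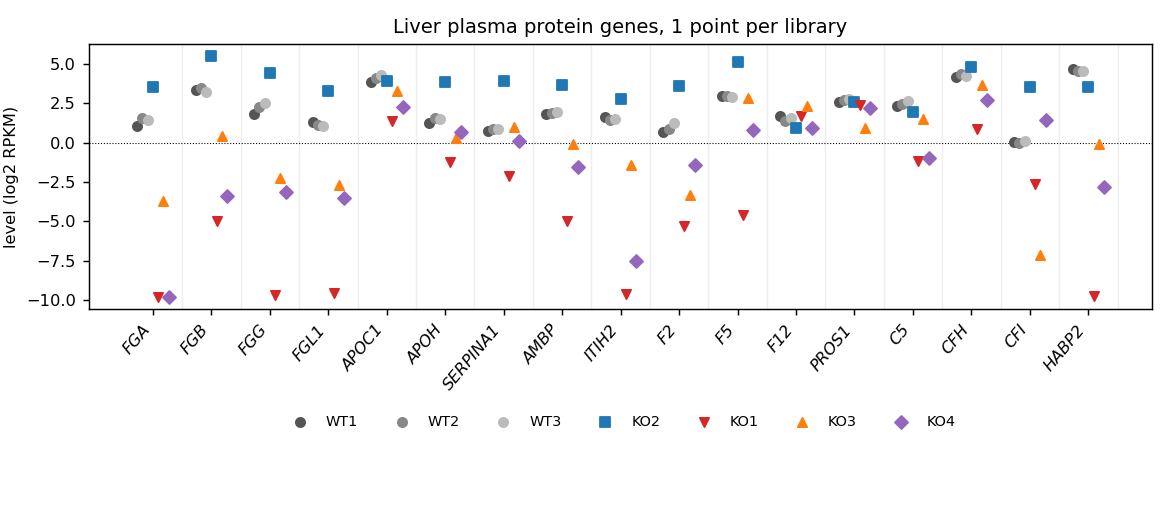
Each column is 1 of the 17 tested plasma protein genes and each point 1 library, with log2 RPKM on the vertical axis. KO2 (squares) lies above the WT circles in 12 genes, and KO1 (triangles pointing down) is the lowest library in 13. Values near -10, such as FGA in KO1 and KO4, are at the level of a gene without reads.

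Hepatic and intestinal enzymes and carriers showed the same division of libraries in 14 of 18 tested genes (77.8%, against 10.5% of all), with 52 listed. None lay above, 5 had a gap over 1 (0.968% of all genes lay below by such a gap), and the median between the sets was -2.51. It was -1.38 without KO1 and -1.43 on the log2(RPKM + 1) scale. Clone medians relative to WT were -3.98 in KO1, -1.79 in KO3, -1.03 in KO4 and 0.94 in KO2, and KO2 was above every WT library in 17 of the 18 (94.4%, against 39.2% of all). CYP2B6 (ENSG00000197408, chromosome 19, 40991250 to 41018398), a drug-metabolising cytochrome P450 that is on none of the lists, was at 2.74, 3.03 and 3.27 in WT, 4.95 in KO2 and -7.18, -2.21 and -1.95 in KO1, KO3 and KO4. ALDH1A1 (chromosome 9, 72900662 to 73080442), a retinaldehyde dehydrogenase, was at 2.09, 1.87 and 1.41 in WT and at 5.61 in KO2, 14.1 times the WT mean. In KO1, KO3 and KO4 it was at -6.85, -2.15 and -3.71. ALDH1A1 thus passed the filter on low values only through WT and KO2. For both enzymes KO2 lay above WT and the 3 clones far below it.

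AKR1B10, an aldo-keto reductase of small intestine and liver tumours, was at 5.69, 5.71 and 5.31 in WT, 6.40 in KO2 and -2.40, 1.38 and 1.61 in KO1, KO3 and KO4. AKR1C3, a related steroid reductase, was at 4.61, 4.76 and 4.59 in WT, 6.04 in KO2 and -0.27, 1.26 and 2.81 in the 3 clones. AKR1B10, AKR1B15 and the pseudogene AKR1B10P1 are close in sequence, as are the AKR1C genes, so the division of reads among them is uncertain. DPP4, a peptidase of the brush border, was at 4.60, 4.57 and 4.50 in WT, 5.55 in KO2 and -1.35, 2.59 and 2.58 in the 3 clones. KO3 and KO4 were at 0.255 and 0.254 times the WT mean there, and KO1 at 0.0166 times. ABCC2, an export pump of the bile canaliculus, was at 5.17 to 5.24 in WT, 6.10 in KO2 and -0.77, 4.88 and 3.54 in KO1, KO3 and KO4, a gap of 0.29. The 4 genes that overlapped were ANPEP, ABCB1, SLCO1B3 and GGT1. LIPC, the hepatic lipase gene, which is on no list here and was picked after its values were seen, was at 0.19 to 0.30 in WT, 3.31 in KO2 and -3.39, -3.57 and -1.39 in the 3 clones.

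Gut and mucosal secretory genes were lower in all 3 clones in 10 of 19 tested genes (52.6%, with 54 listed), 7 with a gap over 1, and higher in none. Over all tested genes these shares were 10.5%, 0.968% and 8.45%. The list's median between the sets was -3.01, and -1.68 without KO1 or -1.65 on the log2(RPKM + 1) scale. Clone medians were -6.09 in KO1, -1.32 in KO3, -2.16 in KO4 and 0.37 in KO2. KO2 was above every WT library in 10 genes and below in 8, so it did not lie on one side of WT (39.2% and 40.6% over all tested genes). TFF1 (chromosome 21, 42362282 to 42366594), a trefoil peptide of stomach mucus, was at 6.10, 5.82 and 5.71 in WT and -0.65, 3.52 and 2.74 in KO1, KO3 and KO4. KO2 held 0.545 times the WT mean of TFF1, which was still above the 3 clones. TFF2 had the same order, with 5.70 to 5.73 in WT, 5.29 in KO2 and 1.02, 4.30 and 3.55 in the 3 clones. TFF3, next to them on chromosome 21, overlapped, since KO2 at 3.04 was below KO3 at 3.44. MUC5B, a gel-forming mucin, was at 2.54, 2.29 and 2.71 in WT, 1.72 in KO2 and -3.94, 0.22 and -2.48 in the 3 clones. For each of these secreted mucosal products KO2 was below WT.

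VIL1 and USH1C, from the same list, were above WT in KO2. VIL1, which encodes the actin bundler villin, was at 0.96 to 1.20 in WT, 3.66 in KO2 and -8.13, -0.60 and -1.48 in KO1, KO3 and KO4. USH1C, a scaffold of microvilli, was at 1.12 to 1.38 in WT, 3.22 in KO2 and -10.15, -2.50 and -1.07 in the 3 clones. KO2 was thus at 6.09 and 3.91 times the WT mean for these genes. Both passed the filter on low values only through WT and KO2. CLDN2, a claudin of leaky epithelia, was at 1.74, 1.57 and 0.98 in WT and 0.37 in KO2, below every WT library, and it was nearly equal in the 3 clones, at -4.75, -4.20 and -4.29. AGR2, a disulfide isomerase of mucus-producing cells, did not divide the libraries: it was at 8.59 to 8.72 in WT, 9.04 in both KO2 and KO3, 5.95 in KO4 and -1.79 in KO1.

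Of 32 tested epithelial junction and keratin genes (52 listed), 10 lay below in all 3 clones (31.2%, against 10.5% of all tested genes) and 2 above (6.2%, against 8.45%). The other 20 overlapped, and the median between the sets was -0.86. CDH1 (chromosome 16, 68737225 to 68835548), which encodes E-cadherin, was at 0.75, 0.78 and 0.47 in WT and 1.96 in KO2, against -5.86, -2.20 and -2.83 in KO1, KO3 and KO4. It passed the filter on low values only through WT and KO2. ITGB4, the integrin of hemidesmosomes, was at 2.20, 1.99 and 2.29 in WT, 3.60 in KO2 and -1.08, -1.01 and 0.93 in the 3 clones. DSP, which links keratin filaments to desmosomes, was at 4.11 to 4.14 in WT, 3.90 in KO2 and 1.66, 2.52 and 3.04 in the 3 clones. KRT17, a keratin of basal and stressed epithelium, lay above, at -1.87 to -1.46 in WT, -1.86 in KO2 and 3.90, 0.48 and 1.46 in KO1, KO3 and KO4. EPCAM overlapped, with 2.85 to 3.04 in WT, 3.88 in KO2 and 1.71, 3.19 and 1.85 in KO1, KO3 and KO4. Of 13 tested epithelial defence genes 5 lay below (38.5%, against 10.5% of all) and none above (8.45% of all), with a median between the sets of -1.76, or -0.92 on the log2(RPKM + 1) scale. DEFB1, a beta-defensin, was at 3.50, 3.93 and 4.27 in WT, 2.58 in KO2, -6.79 in both KO1 and KO3 and 1.49 in KO4. The values of KO1 and KO3 are near the level without reads.

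Other named genes with a wide division are on none of the lists above. CD24, a small surface glycoprotein, was at 3.89, 4.00 and 3.70 in WT, 3.97 in KO2 and -1.95, -0.56 and -0.47 in KO1, KO3 and KO4. SCNN1A (chromosome 12, 6346843 to 6377730), a subunit of the epithelial sodium channel, was at 3.33, 3.30 and 3.53 in WT, 3.47 in KO2 and -2.95, -1.52 and -0.80 in the 3 clones. SEMA3F, a secreted semaphorin, was at 2.51, 2.54 and 2.77 in WT, 2.45 in KO2 and -2.92, -1.22 and -0.64. In these 3 genes KO2 was at 1.08, 1.06 and 0.897 times the WT mean, so it lay with WT rather than above it. CD24 has near-identical copies elsewhere in the genome, and its reads may be divided among them.

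HCAR1, the lactate receptor, was at 3.68 to 3.76 in WT, 3.44 in KO2 and -0.59, 0.45 and 1.21 in KO1, KO3 and KO4. SLC1A7, a glutamate carrier, was at 2.89 to 3.07 in WT, 2.75 in KO2 and -4.85, 0.59 and 0.46 in the 3 clones. CAMK2N1, an inhibitor of the kinase CaMKII, was at 2.90 to 3.05 in WT, 3.95 in KO2 and 0.06, 0.30 and 0.72 in the 3 clones, where all 3 lay close together. LGALS2, a galectin of the gut, was at 2.87 to 2.96 in WT, 5.70 in KO2 and -5.07, 0.03 and -1.04 in the 3 clones, so KO2 was at 6.88 times the WT mean. Signalling genes picked after their values were seen included the receptor genes ERBB3 and FGFR3 and the ligand gene SHH. ERBB3 was at 1.88 to 2.14 in WT, 4.43 in KO2 and -2.54, -0.16 and -1.17 in KO1, KO3 and KO4. FGFR3 was at 0.66 to 1.27 in WT, 3.76 in KO2 and between -1.88 and -0.90 in the 3 clones. SHH was at 0.11 to 0.65 in WT, 0.73 in KO2 and -5.31, -1.21 and -1.77.

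Of the 37 genes that lay above in the 3 clones by more than 1 log2 unit, 24 were at or below 0 in all of WT and KO2, so they passed the filter on low values only because all 3 clones were above 0. Others, among them SPANXB1, EDA2R and TWIST1, were above 0 in too few of WT and KO2 to pass without the clones. That filter limits how far such genes can differ among the clones. Of the 108 lower genes, 60 were at or below 0 in all 3 clones and passed only through WT and KO2. For the 37 higher genes, median differences from WT were 2.79 in KO1, 2.17 in KO3 and 2.15 in KO4, and -0.26 in KO2. KO1 was the highest of the 3 in 25 genes, KO3 in 6 and KO4 in 6. KO2 was above every WT library in 12, within their range in 7 and below in 18, near the shares over all tested genes. A gene was among the 37 only if KO2 lay more than 1 log2 unit below all 3 clones, which favours low KO2 values. The 35 that could be placed on the genome are all protein coding.

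SPOCK1 (ENSG00000152377, chromosome 5, 136975298 to 137598379), a proteoglycan of the extracellular matrix, was at -2.47, -3.05 and -2.94 in WT, -0.58 in KO2 and 4.27, 3.98 and 3.52 in KO1, KO3 and KO4. MMP2 (chromosome 16, 55389700 to 55506691), a gelatinase, was at 2.33, 2.64 and 2.66 in WT, 1.03 in KO2 and 5.03, 4.28 and 5.17 in the 3 clones. KO2 thus lay above WT for SPOCK1 and below it for MMP2. TENM3, a teneurin adhesion protein, was at -0.10 to -0.44 in WT, -0.23 in KO2 and 3.31, 2.13 and 2.23 in the 3 clones. WLS, the carrier of Wnt ligands to the cell surface, was at 2.70 to 2.98 in WT, 2.85 in KO2 and 4.83, 4.41 and 4.39, that is 3.95, 2.96 and 2.92 times the WT mean. GAS6, a ligand of the TAM receptor kinases, was at -0.77 to -0.30 in WT, -0.47 in KO2 and 4.73, 1.61 and 3.29. The receptor gene AXL, which is on 2 of the lists, was at 4.57 to 4.95 in WT, 5.09 in KO2 and 6.32, 5.27 and 5.32 in the 3 clones, a gap of 0.18.

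Several of the higher genes were at low levels in WT. PRICKLE1 (chromosome 12, 42456757 to 42590355), a planar cell polarity protein, was at -4.15, -4.01 and -4.68 in WT, -1.52 in KO2 and 2.48, 1.48 and 1.37 in KO1, KO3 and KO4. SLITRK4 (X chromosome, 143622790 to 143635777), a neuronal adhesion protein, was at -6.58, -5.77 and -5.12 in WT, -7.95 in KO2 and 1.56, 2.09 and 0.85 in the 3 clones. CADM1, a cell adhesion molecule, was at -2.86 to -2.25 in WT, -1.93 in KO2 and 2.83, 0.37 and 1.45. Fold changes from such levels are not informative. PTPRU, a receptor phosphatase, was at 0.31 to 0.60 in WT, -0.59 in KO2 and 2.78, 2.48 and 2.52 in the 3 clones. LDOC1, a gene derived from a retrotransposon, was at 1.22 to 1.62 in WT, 3.03 in KO2 and 5.21, 4.81 and 4.52, so KO2 was between the others. RFTN1, a lipid raft protein, was at -1.66 to -1.09 in WT, -3.37 in KO2 and 2.76, 2.39 and 1.24. EVI2B, a membrane protein encoded within an intron of NF1, was at -1.16 to -0.80 in WT and KO2 and at 1.11, 2.05 and 1.32, so KO3 was its highest library. SPANXB1 has near-identical copies on the X chromosome, and its level is uncertain.

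Of 27 tested mesenchymal genes 7 (25.9%) lay above and 1 (3.7%) below in all 3 clones, against 8.45% and 10.5% of all tested genes. In 3 of them the gap was over 1, against 0.332% of all. SPOCK1, which is among these, passed the filter only through the 3 clones. The median between the sets was 0.18, and 0.42 without KO3 or 0.10 without KO4. TWIST1, a factor of mesenchyme, was at 0.00 to 0.30 in WT, -0.77 in KO2 and 1.75, 1.37 and 1.59 in KO1, KO3 and KO4. Outside the 3 clones only WT1 and WT2 were above 0, so TWIST1 also needed the clones to pass the filter. ZEB1 and ZEB2, repressors of epithelial genes, lay above by gaps of only 0.05 and 0.26. VIM, CDH2 and FN1, for vimentin, N-cadherin and fibronectin, overlapped: VIM was at 8.85 to 9.03 in WT, 7.91 in KO2 and 9.46, 8.73 and 9.15 in KO1, KO3 and KO4. SNAI2, a repressor of epithelial genes, was at 1.09 to 1.77 in WT, 3.00 in KO2 and 4.46, 2.82 and 3.52, so all 4 KO lines were above WT. PDGFRA, a growth factor receptor gene, was at 3.09 to 3.33 in WT, -6.82 in KO1 and -1.75 in KO4, but 2.37 in both KO2 and KO3. Of 16 tested neural development genes 3 (18.8%) lay above, all with a gap over 1, and 2 (12.5%) below. PRICKLE1 and SLITRK4, which are among those above, passed the filter only through the 3 clones. Their median was -0.01, but its sign rests on the libraries: it was -0.41 without KO2, -0.27 without KO4 and 0.24 without KO3, and 0.26 with no filter on low values.

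**Figure D4:**
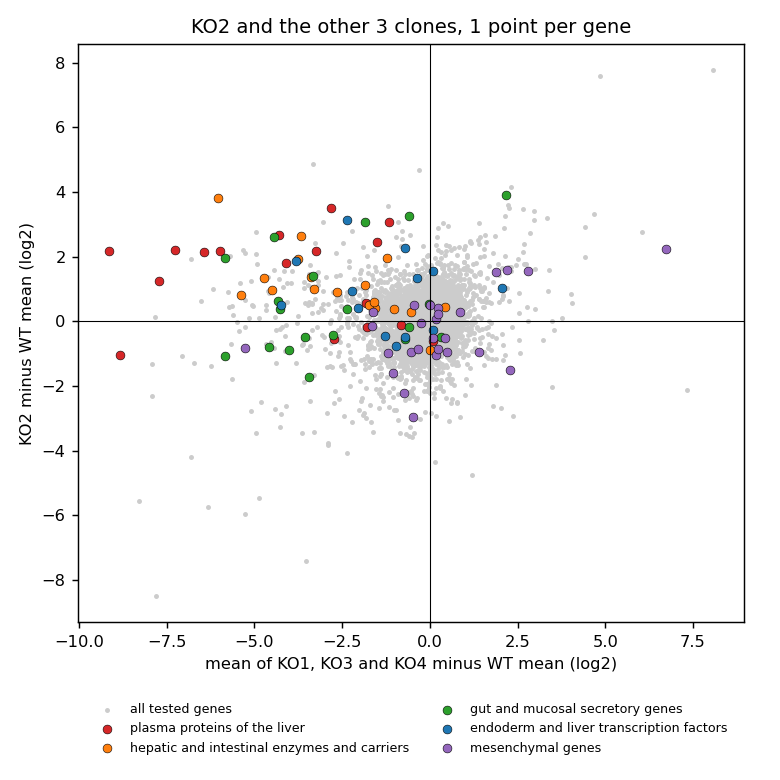
Each point is a gene, with the mean of KO1, KO3 and KO4 minus the WT mean on the horizontal axis and KO2 minus the WT mean on the vertical axis, both in log2 units. Plasma protein genes (red) reach far to the left and most lie above 0 on the vertical axis, whereas mesenchymal genes (purple) surround 0 on both. Both axes subtract the same WT mean, so no relation is read from the plot.

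Lists nearer to the known roles of ASH1L gave medians close to that of all genes (-0.01). The median between the sets was 0.07 over 28 Polycomb subunits, which antagonise Trithorax proteins such as ASH1L. Of these, 2 lay below and 2 above (7.1% each), against 10.5% and 8.45% of all tested genes. The median was 0.06 over 26 ASH1L partners and H3K36 or H3K4 enzymes. None lay below and 2 lay above (7.7%), KMT2B and KMT2D, both Trithorax-type methyltransferases. KMT2B was at 2.30 to 2.44 in WT, 2.52 in KO2 and 2.91, 2.84 and 2.90 in KO1, KO3 and KO4, a gap of 0.31. The median was -0.01 over 14 HOX genes and cofactors, with HOXB8 below and HOXB4 above (7.1% each). None of these shares exceeded that of all tested genes. HOXB8 was at 0.55 to 0.91 in WT, -0.64 in KO2 and -1.60, -1.13 and -1.70 in the 3 clones, so KO2 also lay below WT. Outputs of MAPK signalling (20 tested) had a median of -0.11 (-0.20 to 0.10 on leaving out 1 library), YAP and TEAD targets (24) one of -0.01, and cytosolic ribosomal protein genes (76) one of -0.04. The 5 tested thyroid differentiation genes had a median of 0.08 (0.34 without KO2, and -0.28 with log2 RPKM above 1 required). DIO2, which activates thyroid hormone, lay above and the receptor gene THRB below, each 1 of the 5 genes (20.0%). DIO2 was at -0.95 to 0.23 in WT, -3.24 in KO2 and 3.96, 1.29 and 0.90 in the 3 clones.

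**Figure D5:**
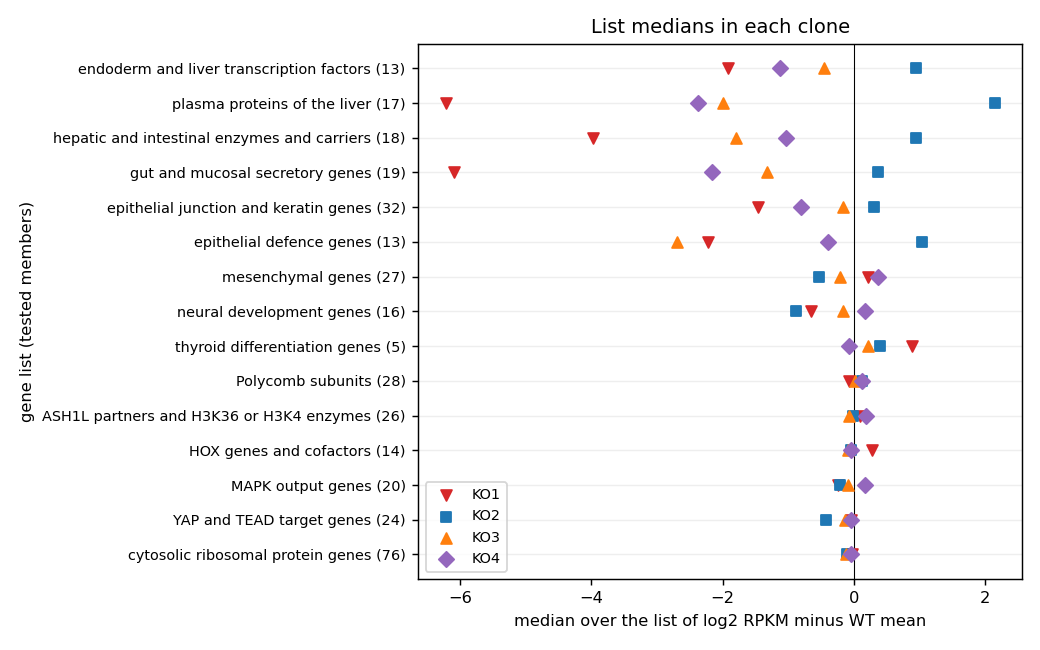
Each row is a gene list with its number of tested members, and each point is the median over the list of log2 RPKM minus the WT mean in 1 clone. In the upper 4 rows KO1, KO3 and KO4 lie below 0 and KO2 above it, from -6.22 in KO1 to 2.15 in KO2 for plasma proteins. The rows of epithelial junction and keratin genes and of epithelial defence genes have the same signs. The lists from Polycomb subunits down to ribosomal proteins lie near 0.

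Each KO line was also compared with WT by limma, in a fit whose spread comes from the 3 WT libraries. These fits use the values that led to the division, so their calls are listed as a description only. In KO1 25.0% of genes were called lower and 19.2% higher (Benjamini-Hochberg adjusted p under 0.05). The shares were 17.9% and 15.3% in KO2, 19.8% and 14.2% in KO3 and 14.5% and 10.2% in KO4. These counts rest on WT2: without it they fell from 4930 to 3085 genes in KO1, from 3704 to 1667 in KO2, from 3795 to 1662 in KO3 and from 2755 to 1159 in KO4. Of the 17 plasma protein genes, 15 were called lower in KO1, 14 in KO3, 16 in KO4 and 3 in KO2, and 12 were called higher in KO2. Of the 18 enzyme and carrier genes, 16, 15 and 16 were called lower in KO1, KO3 and KO4, and 15 were called higher in KO2. Of the 13 endoderm and liver factors, 9, 5 and 8 were called lower in KO1, KO3 and KO4, and 7 higher in KO2. All 108 lower and all 37 higher genes were called in each of KO1, KO3 and KO4, which their choice nearly fixes. In KO2 59 of the 108 were called higher and 10 lower, and of the 37 genes 6 were called higher and 12 lower.

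The design's own contrast, all 4 KO lines against WT, called 27 genes lower (0.242%) and 19 higher (0.170%). None of the 108 lower or 37 higher genes was among them (limma, Benjamini-Hochberg adjustment). Their choice nearly fixes this, since it set KO2 apart from KO1, KO3 and KO4 and so widened the spread among the KO lines. The absence is therefore not a separate result. At an unadjusted p under 0.05 there were 24 of the 108 and 17 of the 37, against 1753 of all 11154 tested genes. The lowest adjusted p was 0.160 among the 108 and 0.0568 among the 37. In this contrast KO2 counts as a replicate of the other KO lines. The total of 46 calls went to 236 without KO2, 87 without KO3, 1 without KO4 and 0 without any single WT library.

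The separated genes were spread over the genome. The 108 lower genes with a position lay on all chromosomes but 13, 18 and the mitochondrial genome, and pairs or groups within 1 Mb of each other were few: FGB, FGA and FGG, AGT and CAPN9, PPP2R2B and SPINK1, AKR1B10 and AKR1B15, GDA and ALDH1A1, AMBP and KIF12, and RNF128 and CLDN2. Among the higher genes they were MMP2 and LPCAT2, EVI2B and EVI2A, PMEPA1 and APCDD1L, and SPANXB1 and LDOC1. Small separations were less even. The share of tested genes with all 3 clones below was 19.9% on chromosome 12, 18.3% on chromosome 21, 18.2% on chromosome 10, 18.0% on chromosome 7 and 17.8% on the X chromosome, against 4.2% on chromosome 19. The share with all 3 above was 18.1% on chromosome 17 and 16.8% on chromosome 19. Whole chromosomes differed from WT in single clones: the median log2 difference on the X chromosome was -0.49 in KO1 and -0.52 in KO3, and -0.07 and 0.02 in KO2 and KO4. When the median difference of the neighbours within 5 Mb was subtracted from each gene, 148 genes had a gap over 1, and 129 of the 145 were among them.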

How the data were processed

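RNA of 7 BHT-101 libraries was measured by RNA-seq. The authors deposited 1 table of log2 RPKM values. Per the submitters' processing notes, edgeR and HTSeq 0.11.2 are named beside STAR 2.5.3a and Trim Galore 0.4.1, with build hg38. The prior count, annotation and any filter are not given in the sources used here. Read totals are unknown, so no counting intervals are given.

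Genes with log2 RPKM above 0 in at least 3 of 7 libraries were kept (11154). Of these, 58 passed through the 3 clones alone, with none of WT and KO2 above 0, and 143 with no value above 0 in the 3 clones. MB21D2, whose value next below its 2 highest was 0.001, was just inside, and ZNF641, with -0.001, just outside. No scaling or pseudocount was applied. Levels, gaps and set means were described without a test. KO lines were compared with WT by limma 3.58.1 in R 4.3.3 (trend, Benjamini-Hochberg adjustment over all tested genes). A lone line is assumed to vary like WT. The simulated KO1 was also given the WT spread, so the simulation cannot check that assumption. On simulated data with 11154 genes, KO1 against WT called 62% of changes of 1 log2 unit and 86% of changes of 2, with 5 false calls; KO against WT called 59% and 93%, with 13.

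The division of libraries, the 17 gene lists and the naming rule were chosen with earlier results of these data known. Named were ASH1L; 15 genes per direction with the widest gap on the log2(RPKM + 1) scale and, in the higher set, a mean level of at least 1 (unnamed transcripts passed over, 2 lower and 1 higher); all tested endoderm and liver factors; and 5 members of each other list with the largest difference of set means. A listed gene and a marker are not reported here. Other genes were chosen after their values were seen. Positions come from GENCODE 29 (12513 of 13142 genes, 95.2%). The alternatives were other filters, scalings, gaps and pseudocounts, position centring, a replicate block, and leaving out each library.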

Additional observations from a re-analysis of the deposited data

Results flagged for a closer look

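Among the 4 KO lines, 7 of 105 named genes had 1 line far from the other 3 (the gap to the nearest line, as a share of the whole range, was above Dixon's critical value at the 95% level). Chance flags about 1 in 20 such groups. KO2 was that line in 4 genes: CAMK2N1 at log2 RPKM 3.95, SPOCK1 at -0.58, SLITRK4 at -7.95 and PTPRU at -0.59. These 4 genes had been named for the division that sets KO2 apart. KO1 stood apart for GATA6, at 2.47. KO3 stood apart for DUSP5, a phosphatase of MAP kinases, at 4.91, and for RPS27A, a ribosomal protein gene, at 8.15.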

How the results depend on the processing

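Of 1353 values of 105 named genes over 13 settings, 1317 moved by less than the larger standard deviation within either set of libraries. A further 36 moved by more (23 of them on the log2(RPKM + 1) scale), and 0 reversed. That standard deviation includes the differences between KO lines, so it is a wide limit and not a replicate spread. Leaving out 1 library always moves a set mean by less than this limit, and other filters leave the values of a kept gene unchanged. The outcome in these settings was therefore fixed in advance, and their part of the 1317 is no sign of stability. A reversal was counted only in genes whose sets did not overlap. In such genes leaving out a library, another filter or the log2(RPKM + 1) scale cannot change the sign. Only median scaling, quantile normalization and position centring could have given a reversal. The 145 genes with a gap over 1 between the sets became 225 without a filter, 69 on the log2(RPKM + 1) scale, 350 at a gap over 0.5 and 44 at a gap over 2. Leaving out 1 library, which can only keep or raise this count, gave 146 to 332. KO against WT called 46 genes, against 30 with log2 RPKM above 1 required, 114 with quantile normalization (56.1% higher, against 41.3%), 75 on the log2(RPKM + 1) scale (26.7% higher), 1 after position centring and 0 to 236 on leaving out 1 library (0 without any 1 WT library, 1 without KO4, 87 without KO3, 236 without KO2). Single-line counts were 4930 for KO1 (3085 to 5833 on leaving out a WT library), 3704 for KO2 (1667 to 4889), 3795 for KO3 (1662 to 4889) and 2755 for KO4 (1159 to 3976), lowest without WT2 in each. For KO1 the share of higher calls was 43.4%, and 53.0% with medians set equal and 53.4% with quantile normalization. A replicate block left 0 genes for KO against WT (limma; 1206 at an unadjusted p under 0.05); same-numbered libraries did not deviate together (r = 0.06, 0.066 and -0.012), so the numbers do not pair them. With 1 library per KO line, the spread within a line is not known.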
